A study of Macaca fuscata with 12 samples.

Results

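Axon guidance ligands and their receptors were followed in the cerebral cortex of Japanese macaques (Macaca fuscata) trained in tool use and of control animals. They are the probe sets whose single gene symbol names an ephrin or Eph receptor, a semaphorin, plexin or neuropilin, a slit or Robo receptor, or a netrin, UNC5 or DCC gene. In all, 104 of the 52766 tested probe sets of the Affymetrix rhesus array met this rule, and they stand for 64 genes. The ephrin family held 32 probe sets of 19 genes, the semaphorin family 49 of 27, the slit family 9 of 7 and the netrin family 14 of 11. One gene taken in by its symbol, UNC5CL, codes for a death-domain protein related to the UNC5 proteins in sequence and is not counted here among the netrin receptors. No filter on low values was applied, so all 104 probe sets were tested.

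Each array held total RNA of bulk tissue from the left hemisphere, and 3 arrays made up each of 4 groups. The tissue lay around the intraparietal sulcus (IPS), where body, touch and vision are combined for reaching, or around the lateral sulcus with the secondary somatosensory cortex (SII). IPS trained arrays 1 to 3 came from the males 334M, 343M and 348M, aged 5 years 7 months, 6 years and 5 years 1 month. IPS control arrays 1 to 3 came from the males 347M, 354M and 358M, aged 5 years 4 months, 5 years 10 months and 3 years 9 months. SII trained arrays 1 to 3 came from the male 334M, the female 335F aged 3 years 10 months and the male 348M. SII control arrays 1 to 3 came from the female 340F aged 4 years 6 months and the males 347M and 354M. So 4 of the 8 animals gave both regions, and both females were in SII. The labels give neither the length of the training nor what control animals did instead, and IPS and SII arrays are named by different schemes in the labels, so region and any batch behind those names cannot be told apart.

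Guidance proteins steer growing axons by attraction or repulsion during development, and many stay on in the adult cortex, where they act on dendritic spines, synapses and glia. Ephrins sit on the cell surface and bind Eph receptor tyrosine kinases of neighbouring cells, with signals passing both ways. Semaphorins act through plexins, and the secreted ones among them mostly need a neuropilin as co-receptor. Slits are secreted and bind Robo receptors, and netrins bind DCC and UNC5 proteins, while the netrin-G proteins are membrane-anchored and bind other partners at synapses.

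Each value is a log2 difference from the probe set's own median across the 12 arrays. It therefore says how an array stands among the others and gives no level of one gene against another. A coarse signal class was recovered from the number spacing in the file: high means at least 256 and middle at least 16 signal units in at least 11 arrays. Among the guidance probe sets 5.8% were high, 54.8% middle and 29.8% low, against 8.5%, 39.5% and 33.2% of all tested probe sets. A further 9.6%, or 10 probe sets, shared the lowest value of the array in at least 2 arrays, against 18.8% of all tested, and such floor values are only upper limits. The 6 high probe sets were 1 each of the ligand genes EFNA1, EFNB2, SEMA3C and SEMA6D and of the receptor genes EPHA5 and PLXNA2. Both DCC probe sets were at the floor in 5 and 7 arrays, so the netrin receptor DCC could hardly be followed. As a check of the tissue, 3 of 4 probe sets of the neuronal gene SYT1, 5 of 7 of the astrocyte list and 4 of 4 of the oligodendrocyte list were high. So were 2 of 7 of the excitatory neuron list, 1 of 9 of the GABA neuron list and 1 of 7 of the skeletal muscle list, and none of the microglia, oligodendrocyte precursor, endothelium, meninges, choroid plexus and red blood cell lists. In bulk tissue, fewer cells of a type and less RNA per cell cannot be told apart.

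No guidance gene passed the test for tool-use training in either region, and the members as a whole stayed near 0. In limma's fit no probe set of the array, member or not, had a Benjamini-Hochberg adjusted p under 0.05 in any of the 5 comparisons. At an unadjusted p under 0.05 there was 1 of 104 guidance probe sets in IPS, SLIT1, against 3.27% of all tested, and none in SII, against 3.87% of all tested. The median training change (trained minus control) of the members was 0.02 in IPS and -0.02 in SII, beside 0.01 and 0.06 for all tested probe sets. In IPS 56 changes were positive and 48 negative, and in SII 48 were positive and 56 negative. The median standard error of a member's training change was 0.36, so changes well under 1 log2 unit could not be resolved for many of them.

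**Figure D1:**
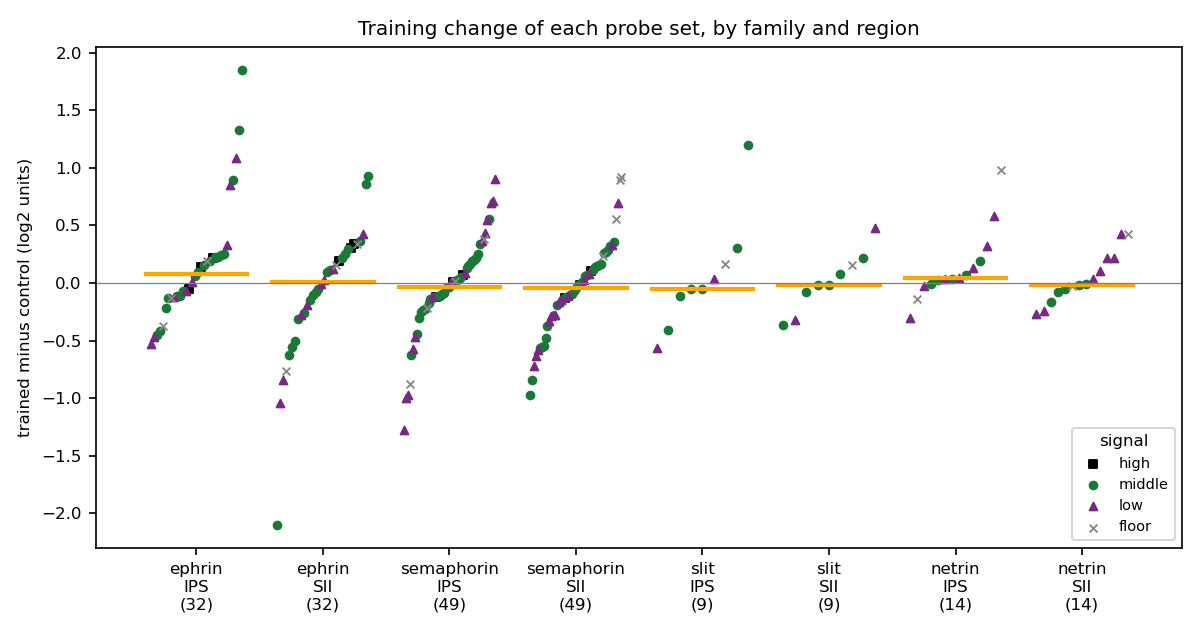
Training change (trained minus control, log2 units) of every guidance probe set, by family and region, with IPS left of SII and the number of probe sets in brackets. Symbols give the signal class and orange bars the median, which stays between -0.05 and 0.08 in all 8 columns, while single probe sets reach 1.85 and -2.10.

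The plot of training changes shows all 4 families centred close to 0. The family medians in IPS were 0.08 for ephrins, -0.03 for semaphorins, -0.05 for slits and 0.04 for netrins. In SII they were 0.01 for ephrins, -0.05 for semaphorins, -0.02 for slits and -0.02 for netrins. The widest changes belonged to the ephrin family, from -0.53 to 1.85 in IPS and from -2.10 to 0.93 in SII, and the receptors with the widest changes, EPHB1 and EPHA4, also had the widest ranges over the 12 arrays (4.97 and 4.95).

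In IPS the smallest p belonged to SLIT1, a slit made mainly in the nervous system. Its values were 0.20, 0.15 and 0.14 in IPS trained arrays, against -0.46, -0.42 and -2.23 in IPS control arrays. The trained arrays lay close together and above all control arrays, and the last control array, from 358M, stood far below the rest. The change was 1.20 ± 0.47 (SE), with an unadjusted p of 0.0294 and an adjusted p of 1 in limma. Without IPS control replicate 3 it was 0.60 (unadjusted p = 0.117), so 1 array decided its size. In SII the same probe set gave 0.05, 0.60 and -0.35 in trained arrays, against 0.34, -0.57 and -0.05 in control arrays, and the groups overlapped. The difference between the training changes, IPS minus SII, was 0.99 ± 0.66 (unadjusted p = 0.165), so SLIT1 was not shown to differ between the regions.

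The transmembrane ligand EFNB2 had the smallest p among the ephrins of IPS. Its MmuSTS.4110.1.S1_at probe set gave -1.06, 1.35 and 0.36 in IPS trained arrays, against -0.59, -1.14 and -1.55 in IPS control arrays. The first trained array, of 334M, lay among the controls, so the groups overlapped, and the change was 1.33 ± 0.66 (unadjusted p = 0.0712). The high-signal probe set of the same gene changed by 0.22 ± 0.26 in IPS and by 0.33 ± 0.26 in SII, both positive and smaller. The receptor EPHA8 gave 0.70, -1.42 and 0.99 in IPS trained arrays, against -0.18, -2.20 and -0.65 in IPS control arrays (1.08 ± 0.69). The second array of each group was the low one, and the groups overlapped.

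Among the semaphorins of IPS the secreted ligand SEMA3C came first. Its low-signal probe set gave 0.50, 0.15 and -0.15 in IPS trained arrays, against -0.34, -0.36 and -0.88 in IPS control arrays, with no overlap and a change of 0.71 ± 0.39. Its high-signal probe set changed by 0.07 ± 0.28, so the readings of the gene were not alike. The receptor PLXNA3 gave 0.34, 0.04 and -0.05 in IPS trained arrays, against -0.04, -0.61 and -0.66 in IPS control arrays (0.54 ± 0.38). The groups overlapped by a single pair of arrays, and the other PLXNA3 probe set, of middle signal, changed by -0.12 ± 0.36.

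In SII the largest single change belonged to the receptor EPHB1, a synaptic partner of glutamate receptors. Its probe set MmugDNA.31686.1.S1_at gave 0.03, -0.86 and -0.88 in SII trained arrays, against 1.72, 1.47 and 1.54 in SII control arrays. The controls lay close together and above all trained arrays, yet the change of -2.10 ± 1.01 had an unadjusted p of 0.063, with the spread pooled over both regions. In IPS the same probe set gave -3.25, 1.01 and -0.03 in trained arrays, against -1.41, 0.76 and -2.10 in control arrays. The other EPHB1 probe sets changed in SII by -0.26 ± 0.21 and -0.05 ± 0.22, in the same direction and far less.

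EPHA1, an Eph receptor for ephrin-A ligands, had the next smallest p of its family in SII. It gave -0.49, 0.10 and -0.20 in SII trained arrays, against 0.17, 0.65 and 0.47 in SII control arrays, without overlap. The change was -0.63 ± 0.31, and the difference from its IPS change of 0.22 ± 0.31 was 0.85 ± 0.43 (unadjusted p = 0.0777). Its other floor-free probe sets were lower in trained animals by less, at -0.31 ± 0.33 and -0.11 ± 0.34.

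The semaphorins with the smallest p in SII were both membrane-bound ligands and had negative changes. SEMA4G gave -0.09, -0.37 and -0.41 in SII trained arrays, against 0.57, -0.16 and 0.38 in SII control arrays, with 1 control array among the trained ones. The change was -0.55 ± 0.26 in SII and -0.30 ± 0.26 in IPS, and their average of -0.43 ± 0.18 gave the only unadjusted p under 0.05 among the members for training over both regions (0.0428, adjusted p = 1). Of all tested probe sets 3.48% had an unadjusted p under 0.05 in that average. The other SEMA4G probe set, of low signal, had positive changes of 0.70 ± 0.80 in SII and 0.91 ± 0.80 in IPS, so the gene had no single direction.

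SEMA7A, a lipid-anchored semaphorin that binds PLXNC1 and integrins, gave 0.08, -0.21 and -0.54 in SII trained arrays, against 1.86, 0.05 and 0.31 in SII control arrays. The first control array, of the female 340F, stood far above the others, and the groups overlapped. The change was -0.97 ± 0.47 in SII and -0.44 ± 0.47 in IPS, where the trained arrays gave -0.05, -0.41 and -0.32, against -0.54, 0.54 and 0.49 in control arrays.

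**Figure D2:**
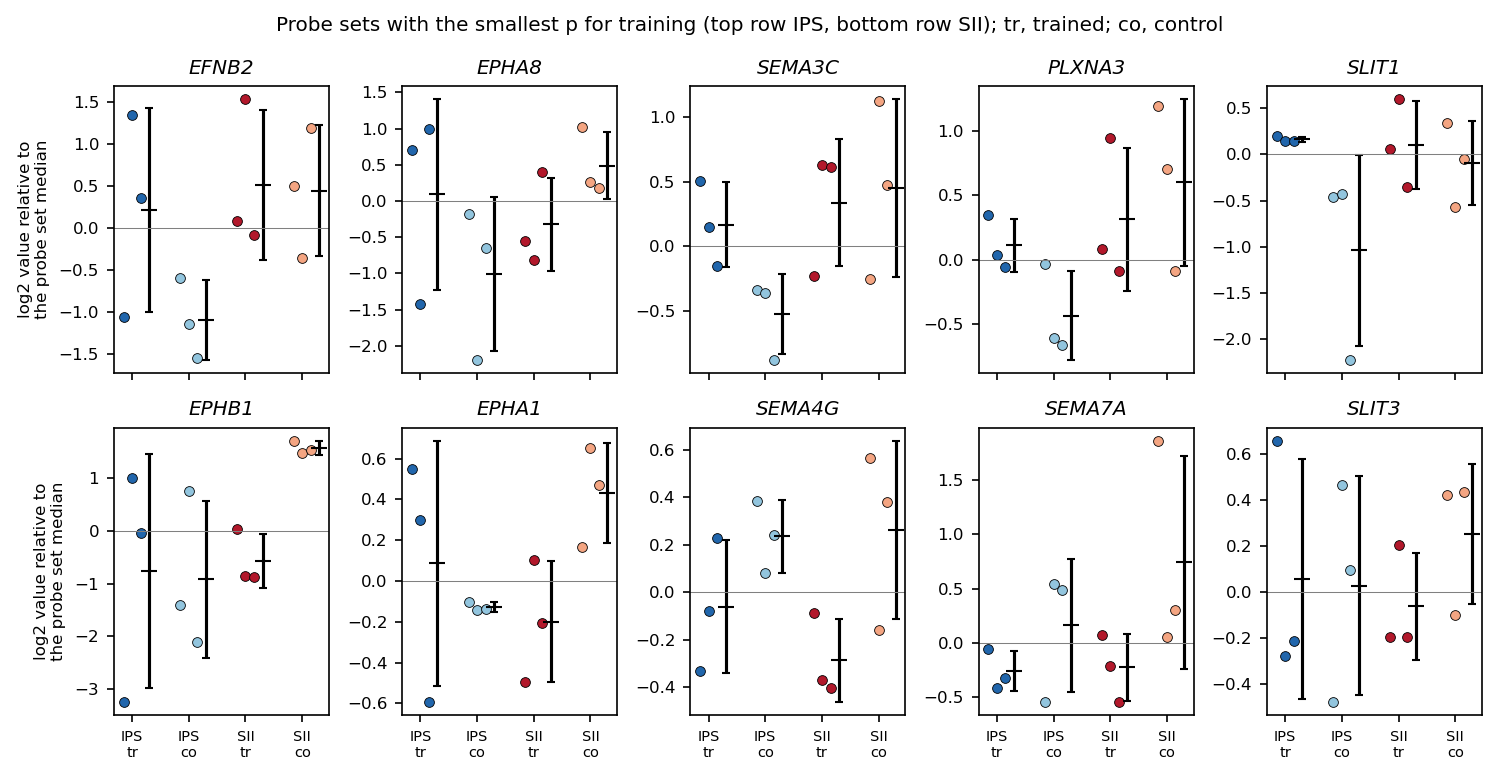
Values in every array (log2 units relative to the probe set median) of the guidance probe sets with the smallest p for training in IPS (top row) and in SII (bottom row), with trained left of control in each region and the mean ± SD (n = 3) beside the points. SLIT1 and SEMA3C separate the IPS groups and EPHB1 and EPHA1 the SII groups, while the same probe sets overlap in the other region.

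Groups whose arrays did not overlap were no more frequent among the guidance genes than elsewhere. In IPS 3 of 104 probe sets were apart, SLIT1 and SEMA3C upward and PLXNB3 downward, against 9.49% of all tested. In SII 6 of 104 were apart, EPHB2 upward and EPHA1, EPHA6, EPHB1 and a pair of SEMA6D probe sets downward, against 7.08% of all tested. EPHB2, a receptor for ephrin-B ligands at excitatory synapses, gave 0.59, 0.58 and 0.14 in SII trained arrays, against 0.13, -0.0013 and -0.12 in SII control arrays. That gap was narrow, and the change was 0.43 ± 0.32. EPHA6 gave 0.57, -0.18 and -0.51 in SII trained arrays, against 1.502, 0.61 and 0.91 in SII control arrays (-1.04 ± 0.53), again with a narrow gap. PLXNB3 gave -0.71, -0.55 and -1.49 in IPS trained arrays, against 0.09, 0.23 and -0.09 in IPS control arrays (-0.99 ± 0.75).

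Apart from SLIT1 in IPS, no slit or netrin probe set had an unadjusted p under 0.05 for training within a region. SLIT2 changed by -0.05 ± 0.21 in IPS and 0.08 ± 0.21 in SII, with the narrowest range of all members over the 12 arrays (0.453). SLIT3 changed by -0.05 ± 0.32 and 0.03 ± 0.33 in IPS and by -0.02 ± 0.32 and -0.32 ± 0.33 in SII in its pair of probe sets. The second of these gave -0.19, 0.21 and -0.20 in SII trained arrays, against 0.42, -0.10 and 0.44 in SII control arrays, with overlap. Among the receptors, ROBO1 changed by -0.11 ± 0.22 in IPS and -0.02 ± 0.22 in SII, and ROBO2 by 0.31 ± 0.37 in IPS and -0.08 ± 0.37 in SII. ROBO3, which acts where axons cross the midline, gave -0.03, -2.09 and 0.26 in IPS trained arrays, against 0.03, 0.42 and -0.64 in IPS control arrays. Its IPS change of -0.56 ± 0.59 rested on the array of 343M, and without IPS trained replicate 2 it was 0.18. In SII it gave -0.10, 0.36 and 0.04 in trained arrays, against -0.16, 0.11 and -1.13 in control arrays (0.48 ± 0.59). ROBO4, the endothelial member, changed by -0.41 ± 0.86 in IPS and -0.36 ± 0.86 in SII in its floor-free probe set.

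Of the netrins, NTN1, the classical ligand of DCC, changed by 0.05 ± 0.27 in IPS and by -0.25 ± 0.27 in SII. It gave 0.30, -0.25 and -0.34 in SII trained arrays, against 0.24, -0.21 and 0.43 in SII control arrays, with full overlap. NTN3 changed by 0.03 ± 0.34 in IPS and 0.04 ± 0.34 in SII, NTN4, a basement membrane netrin, by 0.19 ± 0.33 in IPS and -0.16 ± 0.33 in SII, and NTN5 by 0.13 ± 0.56 in IPS and 0.21 ± 0.56 in SII. The membrane-anchored NTNG1 changed by -0.01 ± 0.23 and 0.58 ± 0.69 in IPS in its 2 probe sets and by -0.06 ± 0.23 and 0.10 ± 0.69 in SII. Its low-signal probe set gave -0.34, 0.72 and 0.71 in IPS trained arrays, against -0.11, 0.11 and -0.62 in IPS control arrays, so the first trained array lay among the controls. NTNG2 changed by 0.07 ± 0.34 in IPS and -0.01 ± 0.34 in SII.

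Of the netrin receptors, UNC5A changed by 0.03 ± 0.26 in IPS and -0.02 ± 0.26 in SII, and UNC5B by 0.04 ± 0.23 in IPS and -0.08 ± 0.23 in SII. The UNC5C probe sets disagreed in sign, with 0.32 ± 0.46 and -0.30 ± 0.80 in IPS and 0.22 ± 0.46 and -0.27 ± 0.80 in SII. DCC changed by -0.14 ± 0.75 and 0.98 ± 0.51 in IPS and by 0.43 ± 0.75 and -0.02 ± 0.51 in SII, all with floor values. The second DCC value in IPS (unadjusted p = 0.0803) came from the array of 334M at 2.03, with the other 5 IPS arrays between -0.46 and 0.12. UNC5CL gave 0.59, 0.75 and -0.54 in SII trained arrays, against -0.42, 0.13 and -0.20 in SII control arrays (0.42 ± 0.37), and changed by -0.03 ± 0.37 in IPS.

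The difference between the training changes of the regions (IPS change minus SII change) gave no guidance probe set with an unadjusted p under 0.05, against 3.68% of all tested. The smallest p of the receptors belonged to EPHA8 (1.93 ± 0.96, unadjusted p = 0.0728), which changed by 1.08 in IPS and -0.84 in SII. SEMA4B had 1.01 ± 0.64, from 0.16 in IPS and -0.85 in SII, and in SII its trained arrays were spread from -1.67 to 0.39. PLXNB1 had -1.80 ± 1.12 in a probe set with floor values, and ROBO3 had -1.04 ± 0.82. In the netrin family DCC had 1.01 ± 0.71 (unadjusted p = 0.183) in a probe set with floor values, and UNC5CL had -0.45 ± 0.52 (unadjusted p = 0.402). For training averaged over both regions, after SEMA4G the smallest p belonged to SEMA7A (-0.71 ± 0.33, unadjusted p = 0.06) and SLIT1 (0.71 ± 0.34, unadjusted p = 0.0643). EPHB2 (0.38 ± 0.23), EFNA1 (0.31 ± 0.20), ROBO4 (-0.39 ± 0.62), DCC (0.48 ± 0.36, unadjusted p = 0.216, with floor values) and then UNC5C (0.27 ± 0.33) followed in their families.

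Genes measured by several probe sets allowed the signs of their readings to be compared. Of 25 genes with at least 2 floor-free probe sets, all probe sets had 1 sign in 12 genes for IPS training and in 15 genes for SII training. The share over all genes of the array was not computed, so these counts are a description only. Among the 6 genes with at least 3, EPHA1, EPHB1, SEMA6D and NRP1 had 1 sign in SII, all negative, and SEMA6D in IPS, all positive. The 4 SEMA6D probe sets changed by 0.19, 0.56, 0.01 and 0.44 in IPS and by -0.56, -0.38, -0.13 and -0.27 in SII. SEMA6D is a membrane-bound ligand of A-type plexins, and none of these changes had an unadjusted p under 0.05.

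The SEMA6D values also showed how much single arrays weighed. In IPS trained arrays its MmuSTS.3284.1.S1_at probe set gave -0.96, 0.89 and -1.04, against -0.48, -0.73 and -0.47 in IPS control arrays. The array of 343M stood above all other IPS arrays, and the same array was the highest IPS array for the SEMA6D probe sets MmugDNA.1717.1.S1_at (1.15) and MmugDNA.33664.1.S1_at (1.38) and for PLXNA2 MmugDNA.37205.1.S1_at (0.61). In these 4 probe sets the IPS array of 334M was at -0.96, -0.90, -2.38 and -1.52. Its SII array was at -0.59, -0.35, 0.04 and -0.39. The animal 343M gave no SII array, so animal and array cannot be told apart for it. The other probe sets of these genes did not share the low values of the IPS array of 334M to that degree. The IPS array of 334M was at 0.16 in the high-signal SEMA6D probe set and at -0.10 and -0.36 in the other PLXNA2 probe sets.

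EPHA4, a receptor that binds both classes of ephrin and shapes dendritic spines in the mouse hippocampus, followed the animal more than the group. It was chosen after its values were seen. Its probe set MmugDNA.26276.1.S1_at gave 2.22 in IPS and 2.26 in SII of 334M, -1.51 in IPS and -0.95 in SII of 348M, -0.66 in IPS and 0.43 in SII of 347M, and -2.70 in IPS and -1.76 in SII of 354M. The probe set MmuSTS.1917.1.S1_at gave 2.21 in IPS and 2.13 in SII of 334M, -2.47 in IPS and -1.38 in SII of 348M, -0.62 in IPS and -0.08 in SII of 347M, and -2.20 in IPS and -1.96 in SII of 354M. So 334M was high and 354M low in both regions and by both probe sets, and the SII arrays of the females were high too, at 2.003 and 1.79 in 335F and 2.03 and 1.77 in 340F.

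**Figure D3:**
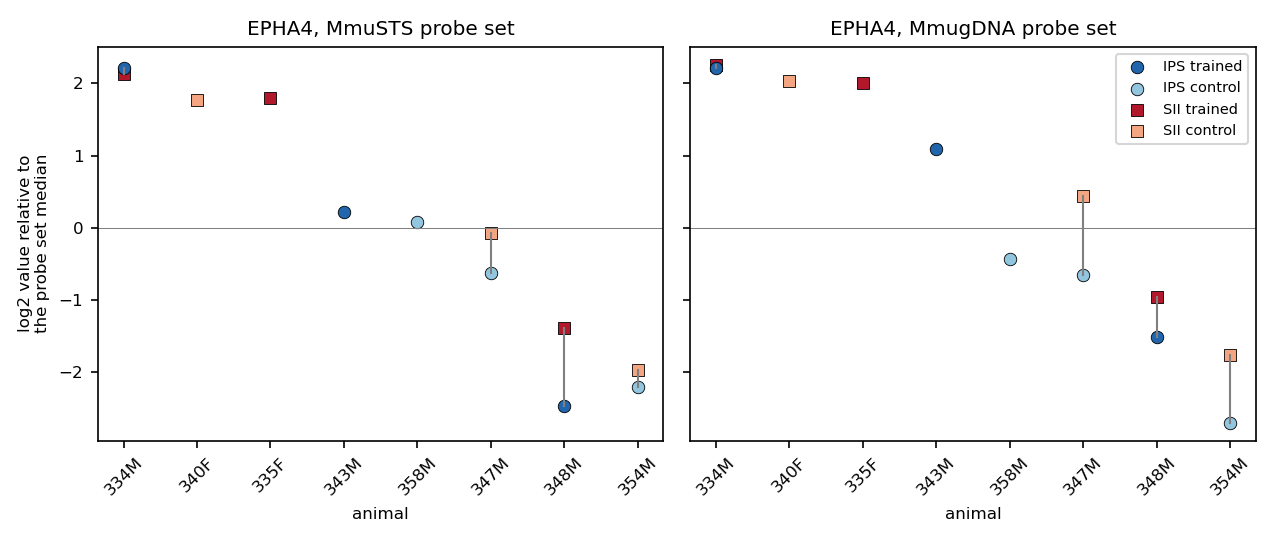
EPHA4 values by animal (log2 units relative to the probe set median) in its 2 probe sets, with circles for IPS and squares for SII and a line joining the regions of 1 animal. The animals 334M, 340F and 335F lie near 2 and 354M near -2, and trained and control animals are found at both ends.

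Over the 4 animals with both regions the mean square between animals was 66.3 and 62.5 times the residual mean square in these EPHA4 probe sets, and the animal means spanned 4.46 and 4.26 log2 units. Of all tested probe sets 1.42% reached a ratio of 10 with a span of 2 or more, as did 2 of the 104 guidance probe sets, both EPHA4. The trained group held the highest male (334M) and a low one (348M), and the training change of EPHA4 was 1.85 ± 1.24 and 0.89 ± 1.34 in IPS and 0.86 ± 1.24 and 0.93 ± 1.34 in SII. The SD between the 3 animals of a group was 1.17 to 2.35 in these probe sets.

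More guidance probe sets had an unadjusted p under 0.05 between the regions than for training, though again none had an adjusted p under 0.05. The precision was unlike, since the regions were compared with 6 arrays each and the training groups with 3 each. The median standard error of a member was 0.25 between the regions and 0.36 for training within a region. At an unadjusted p under 0.05, 14 of the 104 guidance probe sets (13.5%) differed between IPS and SII, against 9.26% of all tested. Of these 3 were higher in IPS, against 4.08% of all tested, and 11 lower, against 5.18% of all tested. The smallest adjusted p was 0.385. The median difference (IPS minus SII) was -0.18 for the members, with 70 of 104 lower in IPS, and -0.01 for all tested, with 50.8% lower. Semaphorins and their receptors had 37 of 49 probe sets lower in IPS (median -0.22), ephrins and Eph receptors 19 of 32 (-0.15), slits and Robo receptors 7 of 9 (-0.15), and netrins and their receptors 7 of 14 (-0.03).

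The sex of the animals moved with the region, since both female arrays were SII arrays. Over all members the array medians were -0.09 to -0.03 in IPS and, in SII, 0.32 for the female 335F, 0.24 for the female 340F and -0.07 to 0.08 for the males. The female arrays also had the largest shares of floor values (9.75% for 335F and 9.69% for 340F, the other arrays 3.63% to 8.48%). The females were also the youngest of the SII animals. Which of these traits goes with the higher medians was not tested. Without the female arrays the median difference of the members was -0.07 (66 lower in IPS), beside 0.02 and 47.4% lower over all tested, and 11 members had an unadjusted p under 0.05, or 10.6% against 7.27% of all tested. In the 4 animals with both regions the median was -0.06, with 63 lower in IPS, beside 0.03 and 46.5% lower over all tested. There 12 members had an unadjusted p under 0.05, or 11.5% against 6.29% of all tested. The shift in the median was thus smaller among males, and 8 of the 14 single differences kept an unadjusted p under 0.05 there. The males gave 10 of the 12 arrays on which the 14 were chosen, so this was not a separate test of them.

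Cell type markers were read in the same comparison. Of the microglia list 8 of 10 probe sets were lower in IPS (median -0.35). Of the 10, 2 had an unadjusted p under 0.05 (20%), against 9.26% of all tested. Its mean over probe sets ran from -0.21 to 0.13 in IPS trained arrays and from -0.47 to -0.29 in IPS control arrays, and from -0.09 to 0.21 in SII trained arrays and from -0.23 to 0.16 in SII control arrays. Lower in IPS were also 5 of 7 of the excitatory neuron list (median -0.15) and 8 of 12 of the oligodendrocyte precursor list (-0.20). The counts were 3 of 9 for GABA neurons (0.11), 1 of 4 for SYT1 (0.11), 4 of 7 for astrocytes (-0.05) and 2 of 4 for oligodendrocytes (-0.10). For vessels and neighbouring tissues, 4 of 11 were lower for endothelium (0.06), 5 of 13 for meninges (0.01), 3 of 5 for choroid plexus (-0.32), 3 of 5 for red blood cells (-0.12) and 5 of 7 for skeletal muscle (-0.27). An unadjusted p under 0.05 was also found in 2 of 7 for astrocytes (28.6%), 2 of 7 for skeletal muscle (28.6%) and 2 of 11 for endothelium (18.2%). It was found in 1 of 7 for excitatory neurons (14.3%), 1 of 12 for oligodendrocyte precursors (8.33%) and none of the other lists. The part of these lists in the region differences of the guidance genes was not tested.

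Among the semaphorin ligands SEMA4A, a membrane-bound semaphorin, had the smallest p. Its probe set MmugDNA.11680.1.S1_at ran from -0.59 to -0.09 (median -0.24) in IPS arrays and from 0.09 to 1.03 (median 0.58) in SII arrays. No IPS array reached an SII array, which held for 2 of 104 members and for 0.984% of all tested. The difference was -0.80 ± 0.19 (unadjusted p = 0.00158), and among males alone it was -0.65 ± 0.18 (unadjusted p = 0.00693). The other SEMA4A probe set gave -0.20 ± 0.19.

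Of the semaphorin receptors, PLXNA2 differed most. Its probe set MmugDNA.37205.1.S1_at ran from -1.52 to 0.61 (median -0.78) in IPS arrays and from -0.39 to 1.28 (median 0.64) in SII arrays. Of the IPS arrays only that of 343M reached the SII arrays. The difference was -1.22 ± 0.35 (unadjusted p = 0.00536) and -1.08 ± 0.40 among males. The other PLXNA2 probe sets, including the high-signal one, gave 0.17 ± 0.20 and -0.15 ± 0.20, so the difference belonged to 1 of its 3 probe sets.

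SEMA6D was split in the same way. It gave -0.96 ± 0.35, -0.77 ± 0.32 and -1.003 ± 0.53 in probe sets of middle and low signal, and 0.19 ± 0.15 in its high-signal probe set. PLXNA3 had -0.61 ± 0.26 in a low-signal probe set and 0.03 ± 0.25 in another, and the first was -0.31 ± 0.22 among males. SEMA3D, a secreted semaphorin, had -0.90 ± 0.22 in a probe set with 4 of 6 IPS arrays and 2 of 6 SII arrays at the floor, and -0.36 ± 0.35 and -0.02 ± 0.18 in the others.

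**Figure D4:**
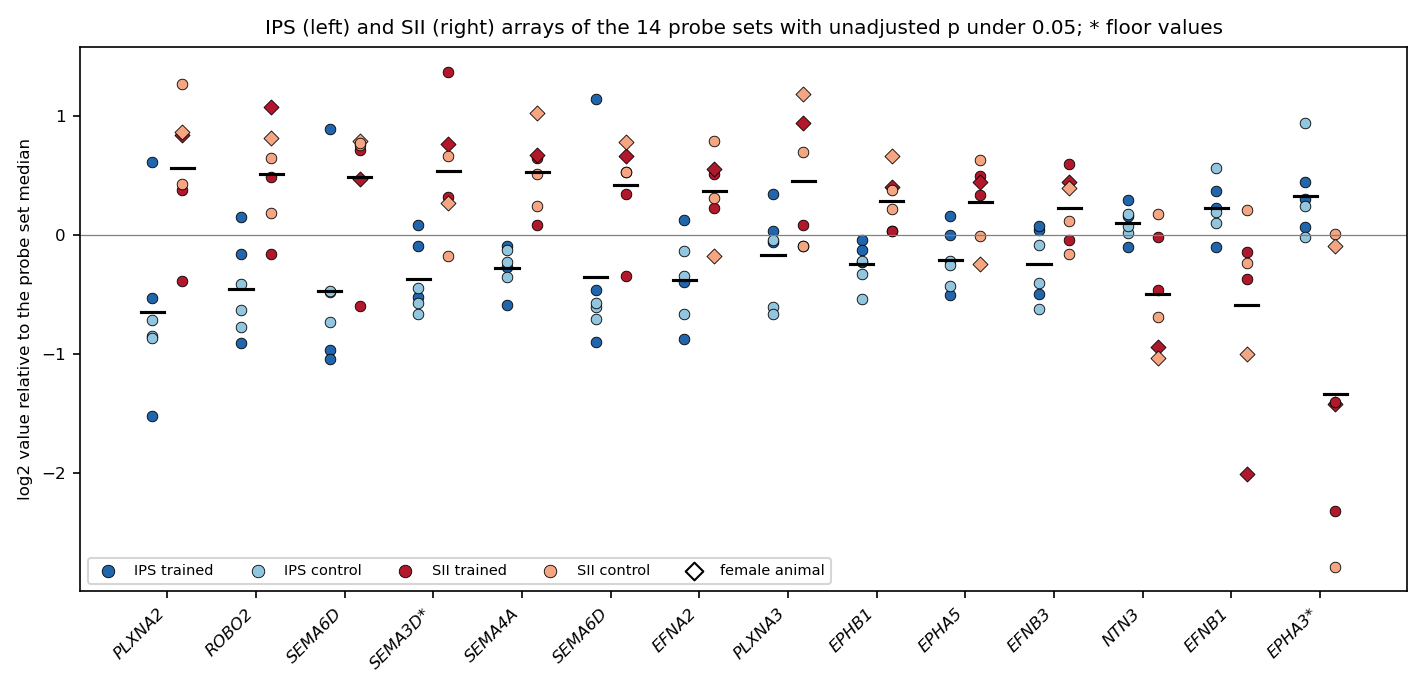
Values in the IPS arrays (left, blue) and the SII arrays (right, red) of the 14 guidance probe sets with an unadjusted p under 0.05 between the regions, in log2 units relative to the probe set median, with bars for the means of 6 arrays and diamonds for female animals. SEMA4A and EPHB1 do not overlap, and in some probe sets a diamond is at the outer end of the SII arrays.

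In the ephrin family the receptor EPHB1 also kept the regions apart. Its probe set MmuSTS.4141.1.S1_at ran from -0.53 to -0.04 (median -0.22) in IPS arrays and from 0.04 to 0.66 (median 0.30) in SII arrays, a difference of -0.53 ± 0.15 (unadjusted p = 0.00492). Among males it was -0.41 ± 0.14, and its other probe sets gave -0.02 ± 0.15 and -1.35 ± 0.70. The ligand EFNA2 ran from -0.87 to 0.13 (median -0.37) in IPS arrays and from -0.18 to 0.80 (median 0.41) in SII arrays. The regions overlapped in few arrays, and the difference was -0.75 ± 0.23 (unadjusted p = 0.00746) and -0.84 ± 0.24 among males.

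EPHA5, a receptor of ephrin-A ligands, and the ligand EFNB3 had differences of -0.48 ± 0.19 and -0.47 ± 0.19 in 1 probe set each. Their other probe sets gave 0.18 ± 0.18, in the high-signal EPHA5 set, and 0.68 ± 0.47 in EFNB3, of opposite sign. The higher ones in IPS were EPHA3 and EFNB1. EPHA3, a receptor of ephrin-A ligands, gave 1.67 ± 0.46 (unadjusted p = 0.00415) with a floor value in 2 SII arrays and none in IPS, and 0.38 ± 0.20 in its floor-free probe set. EFNB1, a transmembrane ligand, gave 0.80 ± 0.33 and 0.21 ± 0.25, and the first was 0.36 ± 0.18 among males, since 335F and 340F had its lowest values (-2.005 and -0.999).

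In the slit family the receptor ROBO2 ran from -0.90 to 0.15 (median -0.52) in IPS arrays and from -0.15 to 1.08 (median 0.57) in SII arrays. The difference was -0.96 ± 0.26 (unadjusted p = 0.00362) and -0.75 ± 0.26 among males (unadjusted p = 0.0185), and of the SII arrays only that of 348M reached the IPS arrays. SLIT1, the next of its family, ran from -2.23 to 0.20 (median -0.14) in IPS arrays and from -0.57 to 0.60 (median 0.00) in SII arrays (-0.43 ± 0.33), with wide overlap. In the netrin family NTN3 ran from -0.10 to 0.30 (median 0.12) in IPS arrays and from -1.03 to 0.18 (median -0.57) in SII arrays. Its difference of 0.59 ± 0.23 (unadjusted p = 0.0295) was 0.35 ± 0.21 among males. UNC5A, next in that family, ran from -0.17 to 0.10 (median -0.05) in IPS arrays and from -0.05 to 0.73 (median 0.09) in SII arrays (-0.27 ± 0.18), with the females 335F and 340F at 0.73 and 0.56.

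**Figure D5:**
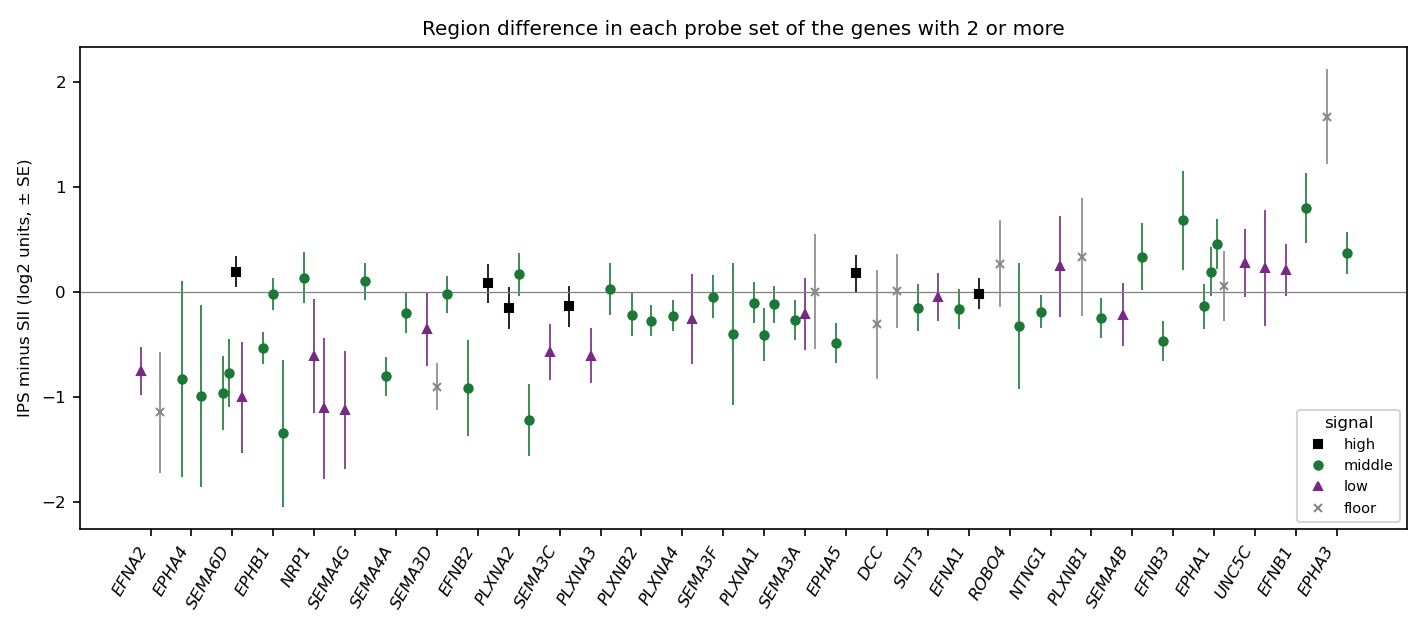
Region difference (IPS minus SII, log2 units, ± SE) in each probe set of the guidance genes with 2 or more, with symbols for the signal class. Several genes hold probe sets of opposite sign, among them SEMA6D and EFNB3, and high-signal probe sets (squares) stay between -0.15 and 0.19.

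Of the 14 probe sets in the plot of values by region, 9 were of middle signal, 3 of low signal, 2 held floor values and 0 were of high signal. All 6 high-signal probe sets were within 0.19 of 0, with a median of 0.03. Among high and middle signals together 9 of 63 guidance probe sets had an unadjusted p under 0.05 (14.3%), against 10.3% of all tested of that signal. When the probe sets of a gene were averaged, 9 of 64 guidance genes had an unadjusted p under 0.05 between the regions, namely EFNA2, EFNB1, EPHA3, EPHB1, NTN3, SEMA3D, SEMA4A, SEMA6D and ROBO2, against 10.3% of all genes. Only EPHB1 and PLXNA1 had 1 sign in all of 3 or more floor-free probe sets, both lower in IPS.

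In the 11 probe sets that were lower in IPS, the IPS array nearest to the SII arrays was 334M in 5 and 343M in 6, both trained animals. Over all 2734 probe sets lower in IPS at this p, these arrays were nearest in 15.3% and 27.4%. The SII array farthest from IPS was that of the female 340F in 5 of the 11, against 27.6% of the 2734. The array of the other female, SII trained array 2, was farthest in 1 of the 11, against 31.8% of the 2734. The female arrays thus went opposite ways against all tested.

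Genes that act with the guidance receptors were set beside them. Of 99 probe sets of cytoplasmic effectors (41 genes measured of 54 listed), such as the kinases and exchange factors that reshape actin, 2 were higher and 1 lower in trained animals at an unadjusted p under 0.05 in IPS, and 1 higher and 2 lower in SII. That was 3.03% in each region, against 3.27% of all tested in IPS and 3.87% in SII. Their smallest p in IPS belonged to TRIO, an exchange factor downstream of DCC (2.34 ± 0.57, with floor values). Another TRIO probe set had -0.78 ± 0.40 in SII. These values differ in both probe set and region, so they cannot be set against each other. Of 99 probe sets of other guidance cues and receptors (46 genes of 52), 1 was higher and 1 lower in IPS and 1 higher and 2 lower in SII. That was 2.02% in IPS, against 3.27% of all tested, and 3.03% in SII, against 3.87% of all tested. The smallest p of the list belonged to PTPRS in SII and to CNTN6 in IPS. PTPRS, a receptor phosphatase that halts axon growth on proteoglycans, gave -0.97 ± 0.29 in SII, and CNTN6, an adhesion protein, 0.68 ± 0.22 in IPS.

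Between the regions 1 probe set of the other cues and receptors was higher in IPS and 12 were lower, or 13.1%, against 9.26% of all tested. The smallest p among them belonged to RTN4RL2, a relative of the Nogo receptor (-1.89 ± 0.32), NCAM1, a neural adhesion protein (-1.26 ± 0.32), and PTPRS (-0.78 ± 0.20). Of the effectors 6 were higher and 4 lower, or 10.1%, against the same 9.26%. Of 33 probe sets of growth cone proteins (14 genes of 22), 24 were positive for training in IPS (median 0.15), none with an unadjusted p under 0.05, while 27298 of all 52766 tested were positive (median 0.01). In SII 19 of the 33 were positive (median 0.03, beside 0.06 over all tested), and 1 had such a p, DCX, a microtubule protein of young neurons, at 2.03 ± 0.44 in a low-signal probe set. None of these had a Benjamini-Hochberg adjusted p under 0.05 in limma.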

How the data were processed

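The authors deposited log2 values from an Affymetrix rhesus array, centred within each probe set on its median of the 12 arrays (largest deviation 2.5e-07). Per the submitters' processing notes the tool was MAS5, whose version is not stated there. The scaling between arrays and the log base are not given in the sources used here. The base was read from the size of the values. No further scaling was applied (array medians -0.044 to 0.114). By the platform's gene annotation 24956 tested probe sets have 1 symbol, 361 several and 27449 none. Control probe sets (99) were left out.

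Signal classes were read from the step size of the stored floating-point values, which grows with the uncentred signal. Floor values were found as a difference between a pair of arrays that many probe sets shared (at least 766, against at most 5 for the next). Between arrays the floor lay up to 1.67 log2 units apart.

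The model, run in R 4.3.3 with limma 3.58.1 and statmod 1.5.0, had a mean for each of the 4 groups and the animal as random block (correlation 0.0474). Variances were moderated by empirical Bayes, with 8 residual and 2.22 prior degrees of freedom. Adjusted p-values are Benjamini-Hochberg over 52766 probe sets, 2-sided. The code was also run on simulated independent normal values without animal effects or floor values, which does not measure its power in these data. Changes are given ± standard error. With 3 arrays a group, the smallest exact permutation p is 0.10. Nothing in the labels gives depth or a scan date, and the number of arrays limits the precision.

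The members, families and lists were chosen with earlier results of these data known. Named in each comparison were members with an unadjusted p under 0.05 and the 2 genes of smallest p per family, with values in every array for the latter where floor-free, and every slit, Robo, netrin, UNC5 and DCC gene. Alternatives were quantile normalization, median centring, array weights, no animal correlation, a replicate block, sex, age, males only, each region alone, no floor probe sets, averaged genes, each array left out, the 4 animals with both regions and a plain 2-sample fit. Sequences and coordinates were not used here.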

Additional observations from a re-analysis of the deposited data

How the results depend on the processing

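Of the named guidance probe sets none reached an adjusted p under 0.05 in limma under any alternative, the smallest being 0.659 for training in IPS, 0.652 in SII, 0.72 for their difference, 0.983 for their average and 0.217 between the regions. Counts of members with an unadjusted p under 0.05 were small and moved. With males only they were 1.92% in SII against 4.21% of all tested, and 2.88% against 4.44% for the difference. With sex as covariate they were 1.92% in SII against 4.78% of all tested, and 0.962% against 4.46% for the difference. For most other alternatives the share over all tested is not given here, so those counts are a description only. For training in IPS, 1 became 2 under quantile normalization, array weights, each region alone and averaged genes, and 0 with age as covariate. For SII, 0 became 3 under quantile normalization, with age as covariate and with high or middle signals only, an alternative chosen after seeing the data. It became 2 under median centring, array weights, sex as covariate, males only, each region alone and the plain 2-sample test, and 1 without floor probe sets. For the difference of the changes, 0 became 3 with age as covariate and with males only, and 1 with array weights and with sex as covariate. For the average, 1 became 2 under quantile normalization, median centring, array weights, sex as covariate, males only and high or middle signals only. Between the regions, 14 of 104 (13.5%) became 9 of 63 (14.3%) with high or middle signals only and 9 of 64 with averaged genes. Fewer members were tested in both, so the lower counts are not lower shares. Leaving out each array gave 0 to 4 members in IPS and 0 to 5 for the difference, both highest without IPS trained replicate 1. It gave 0 to 3 in SII (3 without SII control replicate 2, SII trained replicate 1 or SII trained replicate 2) and 0 to 4 for the average (4 without SII control replicate 2). Without IPS control replicate 3 each of these training counts was 0. Between the regions the same step gave 9 to 15, lowest without SII control replicate 3 or IPS control replicate 3.

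The replicate block gave 1 member in IPS, 0 in SII, 1 for the difference, 0 for the average and 15 (14.4%) between the regions. The shares over all tested there were 3.4% in IPS, 3.79% in SII and 3.69% for the difference. They were 3.44% for the average and 7.96% between the regions. By the animal labels, equal numbers mark the same animal only in IPS and SII trained arrays 1 and 3. The numbers therefore do not pair the samples. Arrays of equal number correlated between -0.199 and 0.061. Arrays of the same animal correlated between -0.091 and 0.056, so these correlations could not tell paired from unpaired arrays.

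Over all 52766 probe sets the count with an adjusted p under 0.05 was 0 in each comparison. It became 1 under quantile normalization, 2 with array weights, 2 with sex as covariate and 1 with high or middle signals in SII, 1 with high or middle signals for the average, and 5 under quantile normalization, 2 with sex as covariate and 2 with averaged genes between the regions. Leaving out each array gave 0 to 2 in IPS, 0 to 5 in SII (5 without SII trained replicate 3), 0 to 2 for the difference, 0 to 3 for the average and 0 to 3 between the regions. None of these was a guidance probe set named here.

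A named probe set changed direction in 6 cases, 4 of them where its gene was averaged over probe sets that disagree. These were SEMA4G in SII (0.072) and in the average (0.19), UNC5C in the average (-0.0082) and EFNB3 between the regions (0.11). ROBO3 in IPS ran from -1.003 to 0.18 when each array was left out, the last without IPS trained replicate 2, and SLIT1 between the regions was 0.092 in the 4 animals with both regions.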
